A study of Rattus norvegicus with 10 samples.

Results

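The genes of the constitutive proteasome, the protease complex that degrades ubiquitin-tagged proteins, were followed in the livers of 10 rats on a high-fat diet. Members were the genes whose single symbol in the platform annotation began with Psma, Psmb, Psmc or Psmd and a digit, except the inducible subunits Psmb8, Psmb9 and Psmb10. Each gene was represented by its probe set with the highest mean log2(intensity + 16) over all 10 arrays. This gave 34 genes out of 14217 with a single symbol, from 45 probe sets out of 31042. All 34 representatives passed the filter on low values, a mean log2 value above the 40th percentile of all probe sets. Of the 34 genes, 13 encode subunits of the catalytic core particle (7 Psma and 6 Psmb genes) and 17 encode subunits of the regulatory particle (6 Psmc and 11 Psmd genes). The remaining 4 match the name pattern without encoding a subunit of the finished particle and were kept apart. They are Psmd5, Psmd9 and Psmd10, which encode chaperones that help to assemble the base of the regulatory particle, and Psmc3ip, which encodes a partner of meiotic recombination proteins. The active-site subunit gene Psmb6 was not analysed here, because its probe set carries several symbols.

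All rats were of the Wistar/ST stock and all were fed the high-fat diet. The 5 mulberry rats were dosed through a gastric probe with powder of dried mulberry leaves in carboxymethylcellulose. Their dose was 500 mg per kg each day, and that of the 5 control rats was 0 mg per kg. Livers were taken after 7 weeks, and 1 Affymetrix array was hybridised per rat; age and sex are not given in the labels used here. The design asks how mulberry leaf alters hepatic gene expression on a fat-rich diet. The spread between arrays of a group includes the spread between animals.

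The proteasome is built from a barrel-shaped core, whose outer rings of alpha subunits form a gate and whose inner rings of beta subunits carry the active sites, and from regulatory caps. In a cap, a ring of ATPases unfolds the substrate and opens the gate, while non-ATPase subunits bind ubiquitin chains and remove them. Because the subunits are needed in fixed proportions, their genes are known to be transcribed together; the transcription factor encoded by Nfe2l1 drives them when proteasome activity falls. In liver the complex takes part in the turnover of regulatory proteins and of damaged or misfolded proteins.

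The tissue label was checked against cell type markers. Of 10 hepatocyte markers 9 were matched and tested, and their summed intensity was between 241416 and 279918 in control rats and between 245248 and 293745 in mulberry rats. Of the 8 matched genes of the lymphocyte list, not all of them particular to lymphocytes, 5 passed the filter (Cd3g, Cd4, Cd8a, Lck and Ptprc). The T cell markers Cd3e and Cd3d and the B cell marker Cd79b did not. Median intensity per array was between 97.5 and 118. In a liver homogenate, fewer cells of a type and less RNA per cell cannot be told apart.

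Promoter sequences were available for 30 of the 34 genes (RefSeq, assembly GRCr8), and not for Psma7, Psmd6, Psmd12 and Psmd14. The 250 bases before each gene's start were searched on both strands for 3 motifs: TGACNNNGC, the core of the antioxidant response element through which the Nfe2l1 product acts; CCAAT, the box bound by the factor NF-Y; and GGGCGG, the GC box. Overlapping matches of different motifs were each counted. The upstream bases of 3 core subunit genes are shown 5′ to 3′ with the matched bases in capitals. They were chosen because Psmb2 holds all 3 motifs, Psmb3 had the widest range over the rats among the beta subunit genes, and Psmb5 encodes an active-site subunit.
Psmb2, chr5:144254808-144255057, plus strand:
Psmb2: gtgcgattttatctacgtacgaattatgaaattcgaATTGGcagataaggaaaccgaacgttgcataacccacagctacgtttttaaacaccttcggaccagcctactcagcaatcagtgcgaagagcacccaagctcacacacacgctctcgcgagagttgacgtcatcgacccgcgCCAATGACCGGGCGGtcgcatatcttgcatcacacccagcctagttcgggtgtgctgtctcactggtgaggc
Psmb3, chr10:83193537-83193786, plus strand:
Psmb3: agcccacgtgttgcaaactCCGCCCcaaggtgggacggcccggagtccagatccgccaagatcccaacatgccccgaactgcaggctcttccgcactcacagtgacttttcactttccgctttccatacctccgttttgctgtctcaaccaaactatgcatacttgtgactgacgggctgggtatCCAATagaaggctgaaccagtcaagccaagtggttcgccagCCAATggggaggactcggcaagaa
Psmb5, chr15:32047380-32047629, minus strand:
Psmb5: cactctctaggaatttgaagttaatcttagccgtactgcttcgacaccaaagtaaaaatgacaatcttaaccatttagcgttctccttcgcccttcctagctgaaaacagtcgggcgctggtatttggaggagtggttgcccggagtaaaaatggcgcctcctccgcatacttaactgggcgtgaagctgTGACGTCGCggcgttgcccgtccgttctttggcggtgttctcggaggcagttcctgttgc

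In Psmb2, matches to the NF-Y box, the antioxidant response element core and the GC box ran into each other, with their first bases 72, 68 and 63 bases before the start. Psmb3 had CCAAT 65 and 24 bases before the start. In Psmb5 the single match was to the antioxidant response element core, 60 bases before the start. TGACNNNGC was found before 5 of the 30 genes (16.7%), namely Psma3, Psmb2, Psmb5, Psmd1 and Psmd9, against 10.1% of all 33469 promoters. CCAAT was found before 17 of 30 (56.7%), against 34.0% of all promoters, and GGGCGG before 21 of 30 (70.0%), against 30.5%. Of the 12 core genes with a sequence 9 held CCAAT, and of the 14 regulatory genes 5 did. None of the 3 motifs was found before 4 of 30 members, against 41.5% of all promoters. These matches are a description of letters in this window.

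Hepatic transcript levels of the proteasome did not differ between mulberry and control rats by more than the spread between rats. With limma, 0 of 34 genes passed an adjusted p of 0.05 (0% of the 18625 probe sets tested passed), and each had an adjusted p = 0.9999. At an unadjusted p under 0.05 the count was 0 of 34, against 1.74% of all probe sets (1.07% higher and 0.671% lower with mulberry), and the smallest unadjusted p was 0.182, for Psmd6. In 0 of 34 genes were the 2 groups without overlap, against 0.344% of all probe sets. Differences are mulberry less control, in units of log2(intensity + 16), and lay between -0.12 for Psma3 and +0.26 for Psmc3ip. The mean was higher with mulberry for 19 genes and lower for 15, and 52.5% of all probe sets were higher. The median difference was +0.028 over the 13 core genes, -0.0021 over the 17 regulatory genes and +0.0075 over all probe sets tested. The 95% intervals of the single differences reached a median of 0.25 to either side, without correction for the number of probe sets tested. A shift of that size in a single gene could thus be missed with 5 rats per group. At the adjusted p, larger shifts could be missed too.

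**Figure D1:**
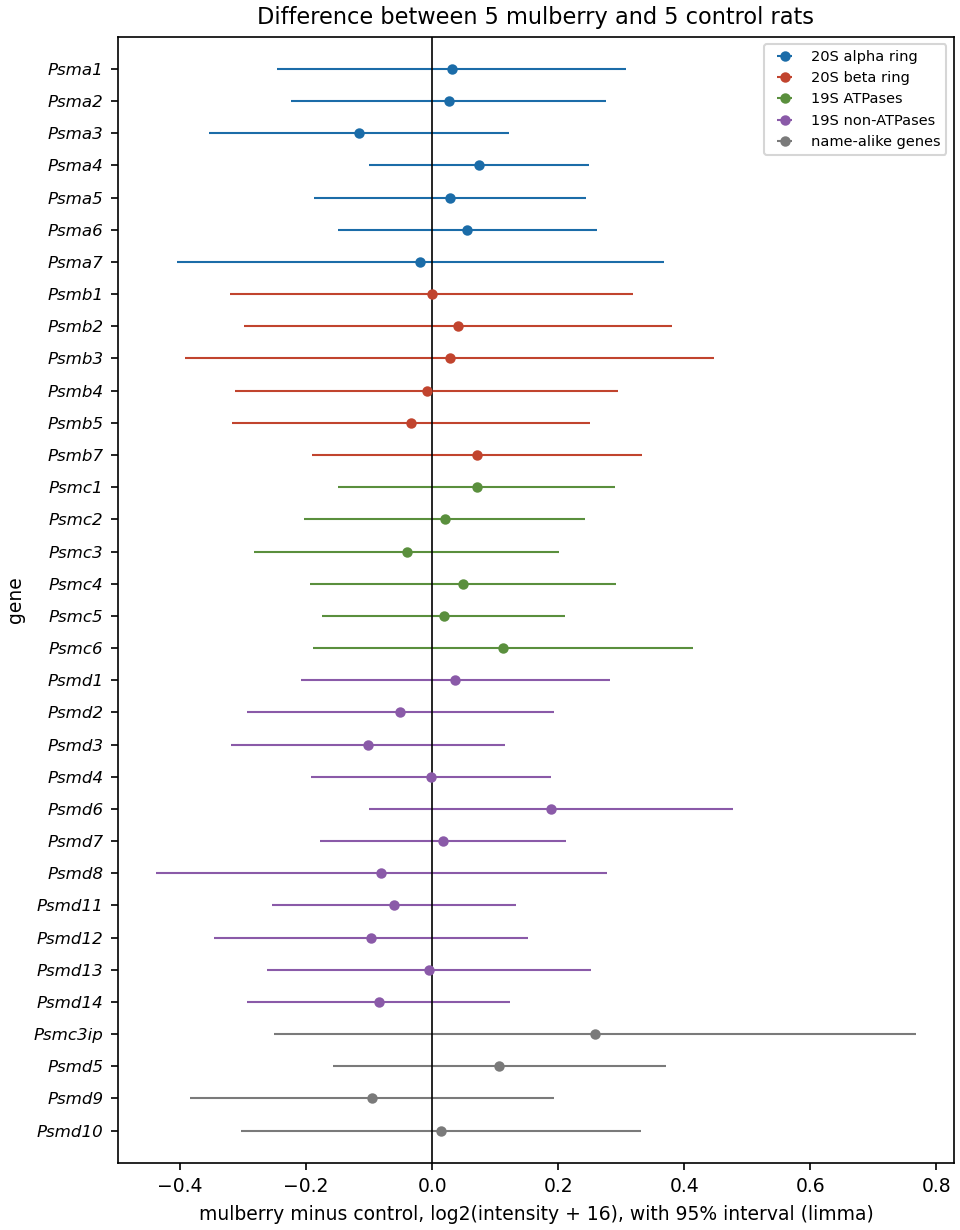
Difference between 5 mulberry and 5 control rats for each of the 34 genes on the log2(intensity + 16) scale, with its 95% interval from limma, coloured by class. Every interval crosses 0, and the widest is that of Psmc3ip.

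The alpha ring genes, whose products form the gated outer rings of the core, had a higher mean with mulberry for 5 of 7 genes and a median difference of +0.028. Psma3 was measured at intensities of 1265, 1449, 1609.7, 1393 and 1503 in control rats 1 to 5 and at 1124, 1267, 1572, 1339 and 1373 in mulberry rats 1 to 5. The groups overlapped, with mulberry rat 3 above 4 of the control rats, and the difference was -0.12 ± 0.11 (SE, limma adjusted p = 0.9999). The other probe set of Psma3 carries a second symbol, Psma3l, and was left out, so Psma3 is uncertain, since signal from this near copy cannot be told apart from its own.
Psma4 was at 2745, 3068, 2998, 3085 and 3269 in control and at 3281, 3281, 3184, 3221 and 2992 in mulberry rats. Control rat 1 was the lowest of the 10 and the values spanned 1.20-fold, the narrowest span among the core genes. Psma7, singled out after its values were seen, had the widest. It was at 4572, 5053, 9879, 7279.7 and 5681 in control rats and at 6226, 6998, 5762, 5379 and 6547 in mulberry rats, a 2.16-fold span that lay between 2 control rats, number 1 the lowest and number 3 the highest. The means of Psma7 were 6493 ± 2151 and 6182 ± 637 (SD, n = 5 each), a difference of -0.019 ± 0.18 (SE). Psma1, Psma2, Psma5 and Psma6 differed by between +0.026 and +0.056.

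The beta ring genes, which include the active-site subunits, had the widest spread between rats, and 3 of 6 had a higher mean with mulberry (median difference +0.014). Psmb5, which encodes the chymotrypsin-like active site, was at 4146, 4497, 6864, 5793 and 4924 in control rats and at 5121, 5034, 4313, 5452 and 5351 in mulberry rats. Control rats held both the lowest and the highest value, and all mulberry rats lay between them. The means were 5245 ± 1094 and 5054 ± 447 (SD, n = 5 each) and the difference was -0.034 ± 0.13 (SE). It was +0.069 without control rat 3.
Psmb7, which encodes the trypsin-like active site, was at 3803, 4419, 6097, 5099 and 4540.1 in control rats and at 4433, 4993, 4638, 5409 and 5471 in mulberry rats. Again control rat 1 was the lowest and control rat 3 the highest of all 10. The difference was +0.071 ± 0.12 (SE), or -0.0075 without control rat 1. Psmb2, a non-catalytic beta subunit gene, was at 5135, 5512, 9576, 7801 and 6448 in control rats and at 7227, 6719, 5783, 8037 and 6961 in mulberry rats. Its difference of +0.041 ± 0.16 (SE) became +0.17 without control rat 3 and -0.056 without control rat 1. The other non-catalytic genes showed the same 2 rats at the ends. Psmb3 ran from 3670.4 to 7630.1 in control rats and from 4272 to 6263 in mulberry rats, Psmb4 from 9179 to 16876 and from 10269.9 to 12645, and Psmb1 from 7669 to 14549.5 and from 8722 to 11027. For these 3 genes the difference was between -0.0086 and +0.028.

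**Figure D2:**
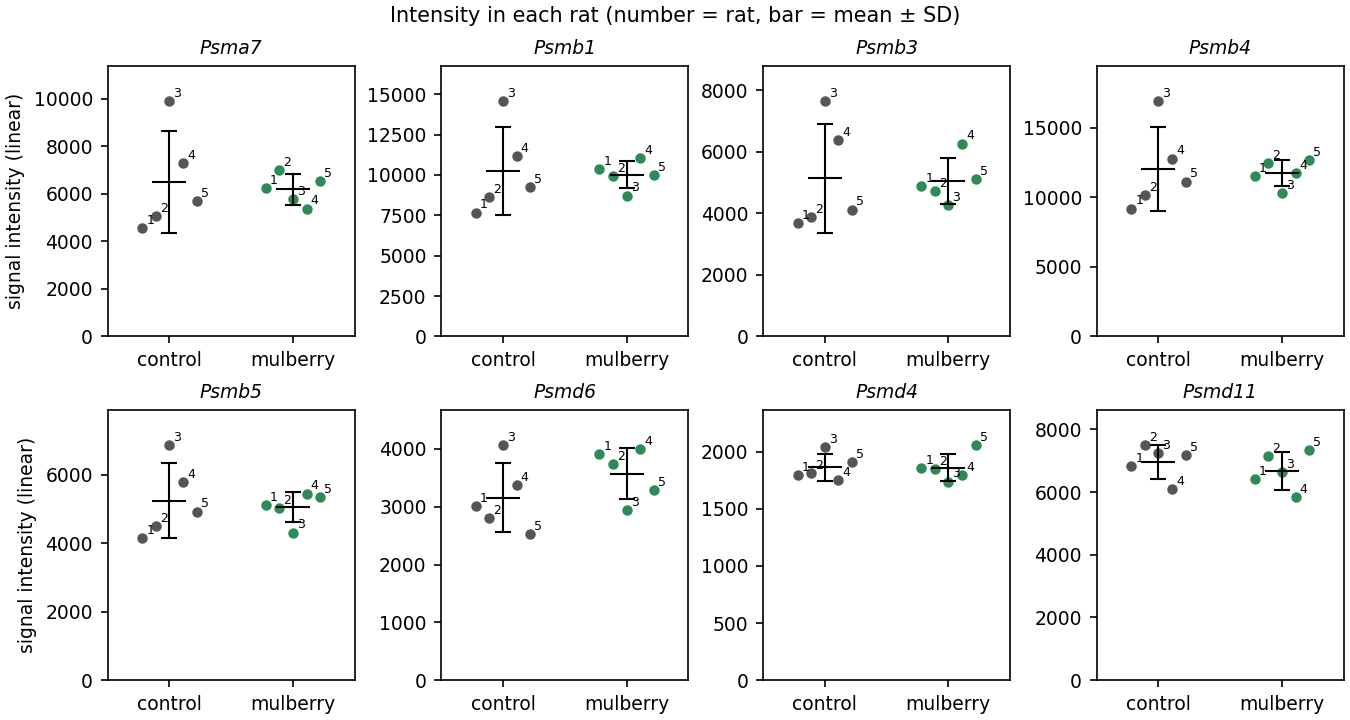
Linear signal intensity of 8 proteasome genes in each rat, with the rat's number beside its point and the group mean ± SD (n = 5) as a bar. For Psma7 and the beta subunit genes Psmb1, Psmb3, Psmb4 and Psmb5 control rat 3 is the highest and control rat 1 the lowest of the 10, while Psmd4 spans 1.18-fold and Psmd11 1.28-fold over all rats.

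The 6 ATPase genes, whose products form the unfolding ring of the regulatory particle, had a higher mean with mulberry in 5 cases, and the median difference was +0.034. Psmc6 was at 5714, 5326, 5366, 4300.1 and 5392 in control rats and at 5106, 7987, 5829.9, 5151 and 4567 in mulberry rats. Mulberry rat 2 was the highest and control rat 4 stood below the other control rats. The difference was +0.11 ± 0.14 (SE), and without mulberry rat 2 it was -0.014. The 2 dimmer probe sets of Psmc6 differed by +0.034 and +0.16. Psmc1 was at 2100.0, 2421, 2843, 2613 and 2488 in control rats and at 2945, 2578, 2331, 2648 and 2563 in mulberry rats, overlapping over most of the range, with a difference of +0.070 ± 0.10 (SE). Psmc2, Psmc3, Psmc4 and Psmc5 differed by between -0.040 and +0.049.

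Among the 11 non-ATPase genes of the regulatory particle the mean was above control in 3 and under it in 8, and the median difference was -0.051. Psmd6, a scaffold subunit of the lid, had the largest difference of any subunit gene. It was at 3016, 2811, 4065, 3372 and 2525 in control rats and at 3911, 3743, 2943, 3993 and 3287 in mulberry rats. The highest value was in a control rat, number 3, and mulberry rat 3 lay below 3 of the control rats. The means were 3158 ± 594 and 3575 ± 447 (SD, n = 5 each), the difference +0.19 ± 0.13 (SE, 95% interval -0.10 to 0.48, limma adjusted p = 0.9999), and it was +0.11 to +0.28 when any 1 rat was left out.
On the lower side stood Psmd3, another lid scaffold gene, at 1137, 1027, 1229.5, 1124 and 1144 in control rats and at 1173, 1015, 914, 1049.5 and 1129 in mulberry rats. The groups overlapped, with mulberry rat 3 the lowest, and the difference was -0.10 ± 0.10 (SE). Psmd12, also of the lid, was at 1982, 1909, 1871, 1613 and 2247 in control rats and at 1483, 2025, 1836, 1704 and 1944 in mulberry rats. Mulberry rat 1 was the lowest and control rat 5 the highest, and the difference was -0.097 ± 0.12 (SE).
Of the genes whose products act on the ubiquitin chain, Psmd4, which encodes a ubiquitin receptor, was at 1795, 1811, 2039, 1750.1 and 1909.7 in control rats and at 1857, 1845, 1738, 1796 and 2056 in mulberry rats. The means of 1861 ± 115 and 1859 ± 119.8 (SD, n = 5 each) nearly coincided, and the 95% interval of the difference was -0.19 to 0.19. Psmd14, which encodes the deubiquitinase that removes the chain, was at 3255, 3536, 4365, 3863 and 4082 in control rats and at 3457, 3794, 3267, 3672 and 3743 in mulberry rats. Its difference was -0.085 ± 0.097 (SE), but 2 dimmer probe sets of the gene had the opposite sign (+0.084 and +0.19). Psmd1, Psmd2, Psmd7, Psmd8, Psmd11 and Psmd13 differed by between -0.081 and +0.036.

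The 4 name-alike genes had differences from -0.096 to +0.26. Psmc3ip was the dimmest of the 34 genes, at 230.1, 187, 119, 141 and 132 in control rats and at 128, 219, 174, 321 and 160.4 in mulberry rats. Mulberry rat 4 was the highest and control rat 3, at the top for many subunit genes, the lowest; the difference was +0.26 ± 0.24 (SE). It was +0.082 without mulberry rat 4, +0.39 without mulberry rat 1 and +0.12 with array weights. The chaperone gene Psmd5 was at 1777, 1766, 2378, 2370.3 and 1792 in control rats and at 2306, 2288, 1844, 2347 and 2011 in mulberry rats, a difference of +0.11 ± 0.12 (SE). Of Psmd9 the probe set used differed by -0.096 ± 0.13 and a dimmer one by -0.52 ± 0.26 (SE, unadjusted p = 0.0718, limma adjusted p = 0.9999).

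Differences between single rats were widest in the beta ring of the core. The median range over the 10 rats was 0.69 on the log2 scale for the 13 core genes and 0.52 for the 17 regulatory genes. By class it was 0.51 for the alpha ring, 0.89 for the beta ring, 0.53 for the ATPase and 0.49 for the non-ATPase genes. It was 0.56 over these 30 genes together, against 0.60 for the probe sets of like intensity described below and 0.82 for all probe sets tested. The subunit genes as a whole therefore did not vary more than other probe sets. The core lay above those of like intensity, and within it the beta ring did so and the alpha ring did not. To describe the order of the rats, each gene's deviation from its own mean over the 10 rats was taken and the median over a class computed for each rat. For the 13 core genes the medians were -0.30, -0.18, 0.35, 0.13 and -0.070 in control rats 1 to 5 and 0.0067, -0.0063, -0.14, 0.13 and 0.032 in mulberry rats 1 to 5. The control rats thus held both ends, and the mulberry rats lay inside them. For the 17 regulatory genes the medians were -0.13, -0.061, 0.17, -0.023 and 0.040 in control rats and 0.00018, 0.062, -0.12, -0.0065 and 0.029 in mulberry rats. Core and regulatory genes had the same highest rat and the same lowest rat, but the core ran from -0.30 to 0.35 and the regulatory genes from -0.13 to 0.17. Within the core the beta ring ran furthest, from -0.37 in control rat 1 to 0.51 in control rat 3, and the alpha ring from -0.17 to 0.22. The ATPase genes of the regulatory particle ran about as far as the alpha ring, from -0.20 to 0.21. The core median exceeded the regulatory median by 0.18 in control rat 3, 0.15 in control rat 4 and 0.13 in mulberry rat 4, and lay under it by most in control rat 1, with a core minus regulatory value of -0.17.

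**Figure D3:**
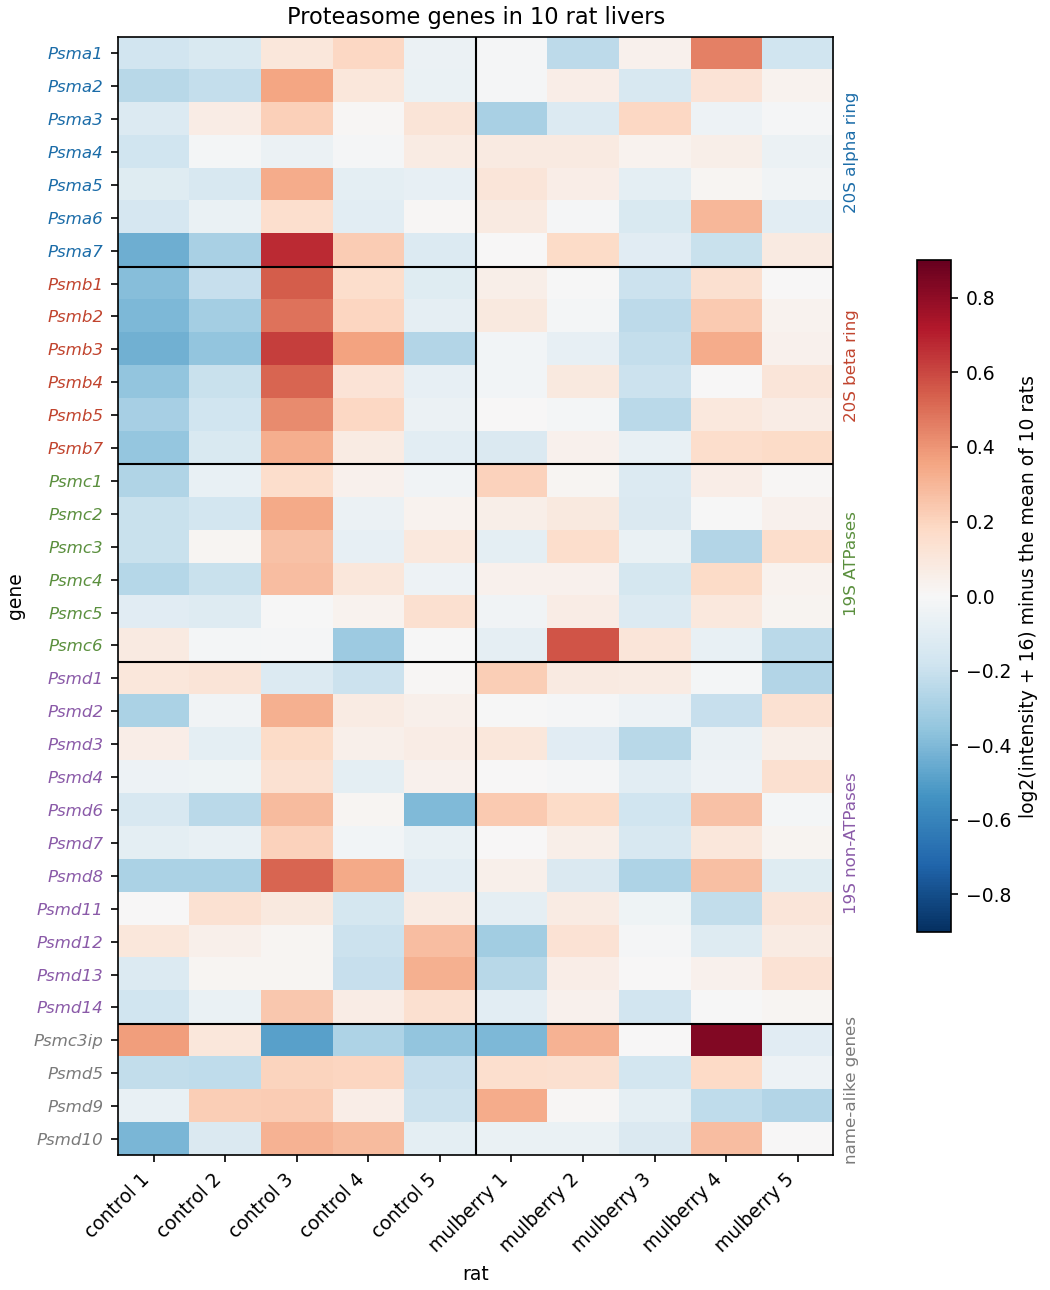
Deviation of each of the 34 genes (rows, grouped by class) from its own mean over 10 rats, on the log2(intensity + 16) scale, in each rat (columns). The beta ring genes and Psma7 form a red block in control rat 3 and a blue block in control rat 1, and mulberry columns are paler.

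Control rat 3 was the highest of the 10 rats for 10 of 13 core genes and 9 of 17 regulatory genes, against 13.9% of all probe sets tested and 23.5% of the 3760 probe sets within the subunit genes' range of mean intensity. Control rat 1 was the lowest for 10 of 13 core genes and 6 of 17 regulatory genes, against 9.17% and 13.1%. In that rat 13 of 13 core genes lay below their own mean. Control rat 3 was also the lowest of the 10 for 18.2% of all probe sets tested and 17.4% of those of like intensity. Its array weight was the lowest, at 0.46. Not all members had control rats 1 and 3 at the ends. Psmd11, a lid gene, was at 6823, 7495, 7246, 6084 and 7175 in control rats and at 6427, 7156, 6635, 5840.3 and 7344 in mulberry rats, so that control rats 1 and 3 were close to each other. Psmd12 and Psmd13 were highest in control rat 5, and Psmd1 was highest in mulberry rat 1 and lower in control rat 3 (1108) than in control rat 1 (1293). No test was made of this pattern, because it was noticed in the same values.

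**Figure D4:**
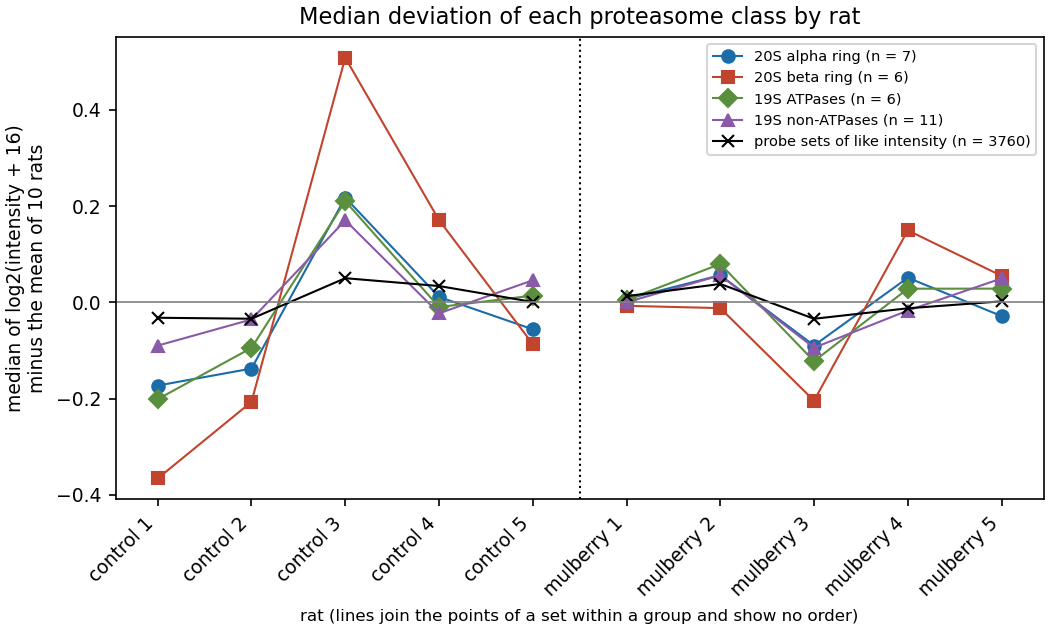
Median deviation of the alpha ring, beta ring, ATPase and non-ATPase genes in each rat on the log2(intensity + 16) scale, with the median of 3760 probe sets of like intensity as crosses. The beta ring reaches 0.51 in control rat 3 and -0.37 in control rat 1, while the probe sets of like intensity stay between -0.034 and 0.050.

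Several other measurements were set beside this order of rats, and some followed it only in part. The 3760 probe sets of like intensity had a median deviation of -0.032 in control rat 1 and 0.050 in control rat 3; with these subtracted, the core medians were still -0.26 and 0.30. With quantile normalization the core medians in these rats were -0.26 and 0.26. For Gapdh, the 3′ over 5′ signal ratio (log2), which is larger where RNA is broken down, was 0.34 in control rat 1, 0.34 in control rat 2, -0.012 in control rat 3, 0.090 in control rat 4 and 0.32 in control rat 5. In mulberry rats 1 to 5 it was 0.12, 0.27, 0.34, 0.024 and 0.29. The 3 rats with the highest core medians, control rats 3 and 4 and mulberry rat 4, thus had the 3 lowest ratios. The same ratio for actin repeated this order only in part. It was 1.67, 1.88, 1.51, 1.70 and 2.10 in control rats 1 to 5. In mulberry rats 1 to 5 it was 1.49, 1.95, 1.60, 1.29 and 1.86. Mulberry rat 4 and control rat 3 were again among the 3 lowest, with mulberry rat 1. Control rat 4 was not, and lay slightly above control rat 1. The part of RNA integrity in the result was not tested. All 8 matched macrophage markers (of 9) were tested, and their median deviation was -0.31 in control rat 1 and 0.53 in control rat 3, the lowest and the highest of the control rats. In mulberry rats it ran from -0.54 in rat 3 to 0.42 in rat 4. The summed intensity of these markers was between 13626 and 22667 in control rats and between 10829.6 and 19463 in mulberry rats, with none at 0, and its part in the result was not tested. Among the hepatocyte markers the median deviation was -0.073 in control rat 1 and 0.13 in control rat 3, but these rats were not at the ends. It was lower in control rat 2 (-0.098) and mulberry rat 2 (-0.11), and higher in mulberry rats 1 (0.15) and 4 (0.19). The 3 matched red blood cell markers (of 4) had medians of -0.35, -0.47, 0.26, 0.33 and -0.013 in control rats 1 to 5, with control rats 3 and 4 high and 1 and 2 low as for the core. In mulberry rats 1 to 5 they were -0.31, 0.32, 0.17, -0.094 and -0.017. Their summed intensity was between 17238 and 30016 in control rats and between 23220 and 27439 in mulberry rats, with none at 0, and its part in the result was not tested.

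For most members the control group had the larger of the 2 SDs. The SD on the log2 scale was larger in control than in mulberry rats for 22 of 34 genes, among them 10 of 13 core and 10 of 17 regulatory genes, against 51.5% of all probe sets tested and 56.4% of those of like intensity. The median SD of the core genes was 0.25 in control and 0.13 in mulberry rats, and of the regulatory genes 0.17 and 0.13. Over all probe sets tested it was 0.25 and 0.25, and over those of like intensity 0.20 and 0.18. The core SD in control rats was thus close to that of all probe sets, and both classes lay below the background in mulberry rats. The regulatory count was close to the share among probe sets of like intensity. All 6 beta ring genes had the larger SD in control rats, with medians of 0.35 and 0.13. Without control rats 1 and 3 the larger SD lay in the control group for 18 of 34 genes and 7 of 13 core genes, against 42.2% of all probe sets. The median core SD of the control group was then 0.17. These rats were picked because they stood at the ends, so a smaller control SD followed from that choice. Without control rat 3 alone the larger SD lay in the control group for 20 of 34 genes, against 43.0% of all probe sets. On the other side of the line stood Psma1 (control SD 0.16, mulberry SD 0.27), where mulberry rat 4 was at 7838, and Psmc6 (0.16 and 0.31). The difference in spread between the groups was not tested.

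**Figure D5:**
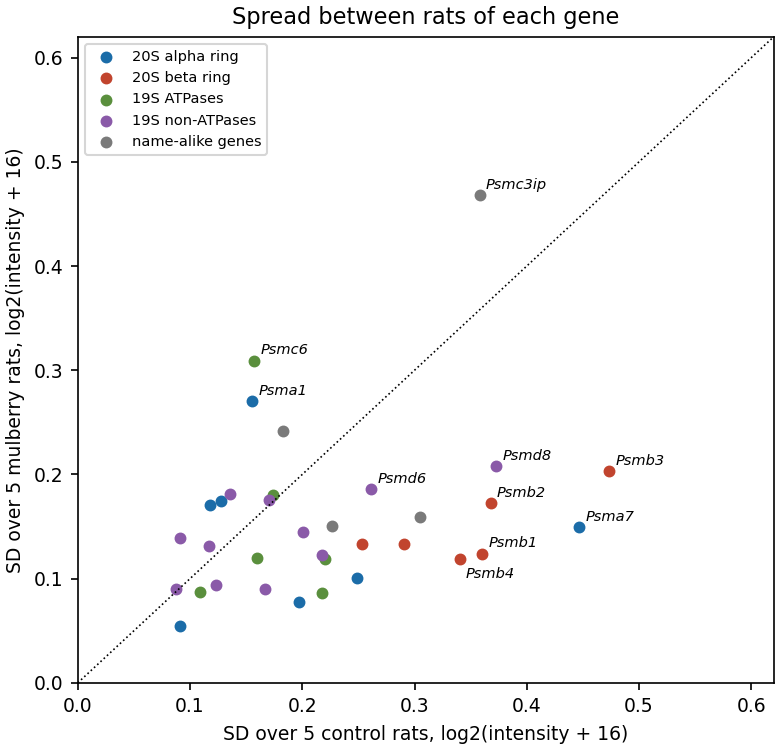
SD over 5 mulberry rats against SD over 5 control rats for each gene, on the log2(intensity + 16) scale; the dotted line marks equal SDs. Of the 34 genes 22 lie below the line, with Psmb3 and Psma7 furthest to the right, and Psmc3ip, Psmc6 and Psma1 lie above it.

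Genes that act with the proteasome did not pass the test either. Over 6 lists of such genes, limma called 0 of 37 tested genes at an adjusted p of 0.05, and 1 gene had an unadjusted p under 0.05, against 1.74% of all probe sets. The inducible subunits, which replace the active-site subunits under interferon, had 3 of 3 higher means (median difference +0.13). Psmb8 was at 2466, 2020.5, 3894, 3109 and 2356 in control rats and at 3339, 3671, 2359.8, 2663 and 2892 in mulberry rats, and here too control rat 3 was the highest. Its difference was +0.13 ± 0.17 (SE). It was +0.026 without control rat 2, +0.26 without control rat 3 and +0.26 with array weights. Psmb9 was lowest in control rat 5 (871), and its difference of +0.13 ± 0.19 (SE) was -0.042 without that rat. The activators and the inhibitor had 4 of 4 tested means higher (median +0.040), with Psme1, a subunit of the interferon-inducible cap, at +0.037 ± 0.089 and Psme4, a large nuclear activator, at +0.091 ± 0.15 (SE). Psme4 was at 2763 in control rat 1 and lowest of the 10 in control rat 3 (1860.3).

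Assembly factors, which help to build the core particle, had 3 of 5 means above control, and the median difference was +0.0053. Psmg4 differed by +0.12 ± 0.10 and Psmg1 by -0.011 ± 0.10 (SE). Pomp, the maturation factor of the core, was singled out after its values were seen because the same rats stood at its ends, with 7242 in control rat 1 and 11584 in control rat 3. The other tested assembly factors did not have both of these rats at their ends. Psmg1 was higher in control rat 1 (2705) than in control rat 3 (2483), and Psmg2 and Psmg3 were highest in control rat 4. Shuttle receptors and deubiquitinases that dock on the proteasome had 4 of 10 higher means (median -0.025), with Ddi2, the protease that activates the Nfe2l1 product, at -0.17 ± 0.11 and the shuttle factor Ubqln1 at -0.043 ± 0.075 (SE). For ubiquitin activation and extraction 5 genes were tested, and 3 had a higher mean (median +0.0028). Vcp, the ATPase that extracts ubiquitin-tagged proteins, was at 6103, 6088, 5538, 6385 and 6316 in control rats and at 7489.6, 6209.8, 6298, 6711 and 6831 in mulberry rats. The groups overlapped at their edges, and the difference was +0.14 ± 0.080 (SE, limma adjusted p = 0.9999). Its cofactor Nploc4 was at -0.14 ± 0.10 (SE).

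Of the factors that regulate proteasome genes 10 were tested, and 6 had a higher mean (median +0.035). Foxo4, a transcription factor of the insulin-responsive Foxo family, had the smallest unadjusted p of the lists (0.0389). It was at 153, 137, 19.9, 78.8 and 25.6 in control rats and at 189, 88.1, 101, 159 and 279 in mulberry rats. The groups overlapped, control rats 3 and 5 lay under the filter level of 61.1, and the difference was +1.03 ± 0.45 (SE, limma adjusted p = 0.9999). With a pseudocount of 64 it was +0.68 and with 1 it was +1.27, and the gene did not pass a filter at the 60th percentile. Nfyb, a subunit of NF-Y, was at 472, 526, 479, 379 and 299 in control rats and at 369, 507, 730.3, 477 and 719.5 in mulberry rats, a difference of +0.35 ± 0.20 (SE). Mulberry rats 3 and 5 were the highest. The list median of these regulators was -0.00088 in control rat 1 and -0.037 in control rat 3, but single members went either way. Stat3 (644 and 879) and Mafk (291 and 375) were higher in control rat 3 than in control rat 1. Mafg (469 and 221) and Foxo4 were lower there. Whether any regulator followed the core by rat was not tested.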

How the data were processed

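Expression was measured on 1 Affymetrix array per rat in 5 control and 5 mulberry rats, grouped by sample title. The deposited values are 1 table of intensity on a linear scale, and the submitters' processing notes name MAS5 and affy without a role. Trimmed by 2% at each end, each array had a mean of 500, and the lowest value was 1, so the arrays were not scaled again; detection calls were not used here. Intensities of different probe sets are not relative RNA amounts.

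From the deposited intensity log2(intensity + 16) was computed, which understates differences of dim probe sets. After removal of 57 control probe sets, those with a mean above the 40th percentile (6.27 on the log2 scale, intensity 61.1) were kept, 18625 in all. All were fitted with limma 3.58.1 in R 4.3.3 (lmFit, eBayes with a variance trend, two-sided, Benjamini-Hochberg over all probe sets, threshold 0.05). The script was tested on simulated data. Python 3.11.15 was used for tables and plots. The number of arrays limits the precision. Symbols came from the platform annotation, and all 34 members matched RefSeq genes of GRCr8 by Entrez identifier. The members and lists were chosen with earlier results of these data known.

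Named with values in every rat were active-site subunits, Psmd4 and Psmd14, the 2 genes per class with the smallest unadjusted p, and the 3 highest and 3 lowest differences, and 2 genes per companion list were named; other genes were singled out after their values were seen. Alternatives were pseudocounts of 1 and 64, no filter and the 60th percentile, array weights, a fit with no variance trend, a median shift, quantile normalization, the rat number as a block, the mean of all probe sets of a gene, and leaving out each rat. Chosen after seeing the data were leaving out control rats 1 and 3, centring on probe sets of like intensity, and the count of larger SDs under each setting. Marker lists of lymphocytes, neutrophils, endothelium, stellate cells, bile ducts and red blood cells were also computed.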

Additional observations from a re-analysis of the deposited data

Results flagged for a closer look

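In 5 cases a rat stood apart from the other 4 of its group by more of the group's range than Dixon's 95% critical value, out of 108 groups checked; chance alone flags about 1 group in 20. Psma5 was at 7299 in control rat 3, against 5238 to 5507 in the other control rats. Psmd7 was at 3459 in the same rat, against 2812 to 2947. Psmc6 was at 4300.1 in control rat 4, against 5326 to 5714. Psme4 was at 2106 in mulberry rat 5, against 2791 to 3037. The median deviation over the 30 subunit genes was -0.12 in mulberry rat 3, against 0.0034 to 0.049 in the other mulberry rats.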

How the results depend on the processing

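Under every alternative listed above, 0 of 34 members were called, and 0 probe sets in all where the whole table was fitted. The lowest adjusted p of any probe set was 0.113, without control rat 3. Leaving out 1 rat gave a median difference of -0.056 to 0.12 over the core, -0.038 to 0.023 over the regulatory genes and -0.035 to 0.082 over all members; without control rat 3 the core median was 0.12. Array weights gave a core median of 0.091. The number of members with the larger SD in control rats was 20 to 27 of 34 when 1 rat was left out. The share of all probe sets was then 43.0% to 58.2%, lowest without control rat 3 and highest without mulberry rat 4, as for the members. Of 26 named genes, 9 changed sign when 1 rat was left out and 6 under another setting. The ranges over single rats were -0.056 to 0.17 for Psmb2, -0.11 to 0.069 for Psmb5, -0.0075 to 0.16 for Psmb7, -0.014 to 0.19 for Psmc6, -0.039 to 0.031 for Psmd4, -0.042 to 0.26 for Psmb9, -0.025 to 0.19 for Psme4, -0.011 to 0.076 for Psme1 and -0.066 to 0.029 for Psmg1. Psmd4 was at 0.0015 with quantile normalization, 0.022 with array weights and 0.0055 when centred on probe sets of like intensity. Array weights turned Psmb5 to 0.046 and Psme4 to -0.038. The mean of all probe sets gave 0.53 for Psmb5, whose 2 further probe sets were under the filter, 0.063 for Psmd14 and -0.045 for Psme1. Without control rats 1 and 3, Psmd4 was at 0.026, Psme4 at -0.030 and Psmg1 at 0.054. The causes were not tested. The rat numbers were not treated as pairs. Deviations of same-numbered rats correlated between -0.33 and 0.096, which cannot show whether the numbers carry a pairing. With the number as a replicate block 0 members and 0 probe sets were called. The median differences stayed at 0.028 for the core and -0.0021 for the regulatory genes. They could not change, because each group holds every rat number. The number of arrays limits what could be seen.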

Other observations

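The other marker lists gave no call. Of 5 neutrophil markers 2 were matched and tested, and Mpo, Elane and Ngp were not matched. Both tested neutrophil markers had lower means with mulberry, with a median difference of -0.70, the furthest from 0 of these lists. S100a9 was at -0.77 ± 0.19 (SE, unadjusted p = 0.00136, limma adjusted p = 0.9999) and S100a8 at -0.62 ± 0.27. S100a8 lay near the filter level of 61.1. Its mean intensity was 86.3 in control and 54.4 in mulberry rats, so it passed the filter only through the control rats. The list median draws on this gene and S100a9 alone. The median difference was +0.20 over the 5 tested genes of the lymphocyte list, the value of Ptprc. It was +0.15 over 7 stellate cell, +0.015 over 7 endothelial, -0.060 over 2 bile duct and +0.048 over 3 red blood cell markers. In each of these lists, limma called 0 genes at an adjusted p of 0.05, and at an unadjusted p under 0.05 there were 2 genes, both of the neutrophil list. Of the macrophage markers 2 also had an unadjusted p under 0.05, in opposite directions, Cd68 at +0.39 ± 0.18 and Cd14 at -0.38 ± 0.14 (SE), and limma called 0.

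Subunit genes with CCAAT in the 250 bases before the start had a median range over the 10 rats of 0.55 on the log2 scale (14 genes), against 0.54 for those without it (12 genes). For GGGCGG the medians were 0.57 (18 genes) and 0.52 (8 genes), and for TGACNNNGC 0.62 (4 genes) and 0.54 (22 genes). These values were not tested.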
